A study of Mus musculus with 3 samples.

Results

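Macrophages made up a small share of the tdTomato+ cells sorted from the mouse larynx: 165 of 49393 cells that passed the quality limits (0.334%, 95% Wilson interval 0.287 to 0.389). They were selected on their own counts. A barcode was kept with 500 to 8000 detected genes, 1000 to 40000 UMIs (unique molecular identifiers, one per captured RNA molecule) and at most 8% mitochondrial UMIs, and was taken as a macrophage if at least 3 of 7 genes (Csf1r, C1qa, C1qb, C1qc, Tyrobp, Mrc1 and Adgre1) had a UMI and Epcam, an epithelial adhesion gene, had none. Library 1 held 97 macrophages among 14252 kept cells (0.681%, 0.558 to 0.830), library 2 held 33 among 7527 (0.438%, 0.312 to 0.615) and library 3 held 35 among 27614 (0.127%, 0.0912 to 0.176). The mean share was 0.415% ± 0.278 (SD, n = 3), and the highest share was 5.37 times the lowest. The intervals cover counting error only, and that of library 3 did not overlap the others. Libraries 1 and 2 together held 78.8% of the macrophages, and 21.2% came from library 3.

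The data were 3 droplet single-cell RNA-seq libraries from Lrig1CreERT2/+; ROSA LSL-tdTom/+ mice. In these mice tamoxifen (TX) lets Cre, expressed from the Lrig1 locus, switch on the red reporter tdTomato, and larynges were collected 1 day post recombination (PR). Each library was a pool of 10 larynges from which tdTomato+ cells were sorted, so a library is the replicate and animals cannot be told apart within it. All libraries belong to 1 condition, so the values compare macrophages with the other kept cells of the same library, macrophages with each other, and libraries side by side, with no test between conditions. Cells were sorted on the reporter signal, so the share is one of sorted tdTomato+ cells and not of the larynx.

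Macrophages are phagocytes that live in nearly every tissue, take up dying cells, debris and microbes, and digest them in lysosomes. Most depend on signals through the receptor Csf1r, present antigen on MHC class II molecules, and make complement C1q, a blood-borne protein that tags targets for uptake. Tissue macrophages are commonly described as a population along vessels that bears the hyaluronan receptor Lyve1 and is low in MHC class II, and populations high in MHC class II, some of which are replenished from Ccr2+ monocytes.

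The libraries held 18068, 10816 and 31646 barcodes with 211727921, 147898790 and 413632222 UMIs. Macrophages had a median of 12877 UMIs per cell in library 1, 4680 in library 2 and 4684 in library 3, against medians of 10761, 14331 and 11199 over all kept cells. Their mitochondrial share was lower than that of the kept cells in every library, at medians of 1.46%, 1.51% and 1.84% against 2.78%, 2.74% and 3.03%. No barcode was shared between the macrophages of different libraries, while 24, 119 and 67 kept barcodes were shared by libraries 1 and 2, 1 and 3, and 2 and 3. Kept cells with the highest scores of the doublet caller scrublet were marked, up to a set share of 0.4% per 1000 barcodes. The number marked was thus fixed by the barcodes of each library, at 7.23%, 4.33% and 12.7% of kept cells. Among macrophages, 9 of 97, 1 of 33 and 31 of 35 were marked. Without the marked cells the share in library 3 was 4 of 24119 cells (0.0166%, 0.00645 to 0.0426). The library 3 values below rest on cells most of which carry that mark, and genes were called on libraries 1 and 2 only.

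**Figure D1:**
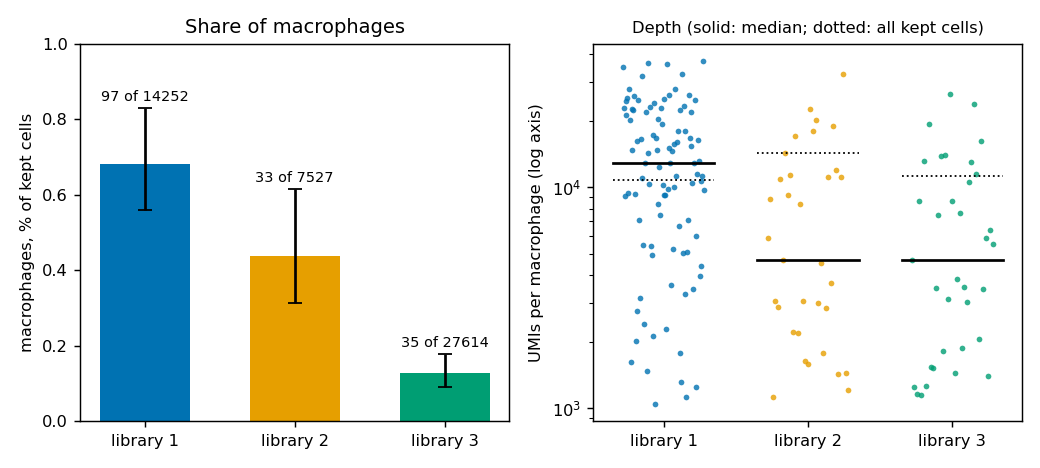
Left, macrophages as a percentage of kept cells in each library with 95% Wilson intervals; right, UMIs per macrophage on a log axis, with each point a cell, solid lines at the medians and dotted lines at the median of all kept cells. The share is highest in library 1 and lowest in library 3, and the macrophages of libraries 2 and 3 sit mostly below the kept-cell median.

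The 3 chains of C1q come from neighbouring genes on chr4:136606009-136626161 (GRCm39, minus strand), a stretch of 20153 bases that holds C1qb, C1qc and C1qa. They were the most abundant of the selecting genes, and the stretches directly before their start sites are shown because the genes are detected together, with those of Mrc1 and Retnla, on which the cells differ. The sequences are from the GRCm39 assembly and each ends on the base before the annotated start, with capitals for AGGAAGT or its reverse complement ACTTCCT, extended where the longer form GAGGAAGT matches. This purine-rich sequence is known as a binding sequence of PU.1, the myeloid transcription factor encoded by Spi1.
C1qa, chr4:136626162-136626311, minus strand: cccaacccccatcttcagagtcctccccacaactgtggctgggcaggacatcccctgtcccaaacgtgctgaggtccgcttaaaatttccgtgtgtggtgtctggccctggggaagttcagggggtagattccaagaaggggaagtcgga
C1qb, chr4:136613512-136613661, minus strand: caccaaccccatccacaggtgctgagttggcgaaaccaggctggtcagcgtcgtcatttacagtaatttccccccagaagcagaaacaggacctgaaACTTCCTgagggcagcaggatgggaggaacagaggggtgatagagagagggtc
C1qc, chr4:136620377-136620526, minus strand: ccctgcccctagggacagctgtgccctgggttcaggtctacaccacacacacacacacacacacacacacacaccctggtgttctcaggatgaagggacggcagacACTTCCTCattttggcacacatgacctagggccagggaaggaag
Mrc1, chr2:14234001-14234150, plus strand: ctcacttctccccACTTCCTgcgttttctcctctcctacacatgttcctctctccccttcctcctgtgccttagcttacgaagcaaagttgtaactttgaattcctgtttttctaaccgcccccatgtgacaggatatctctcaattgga
Retnla, chr16:48662745-48662894, plus strand: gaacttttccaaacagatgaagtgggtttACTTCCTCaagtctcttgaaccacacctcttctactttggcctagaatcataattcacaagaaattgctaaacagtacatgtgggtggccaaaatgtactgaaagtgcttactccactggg

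Searched on both strands in the 250 bases before the start, AGGAAGT lay 53 bases before C1qb, 44 before C1qc, 137 before Mrc1 and 121 before Retnla. It was not found in that window before the other selecting genes, C1qa, Tyrobp, Csf1r and Adgre1. Of 21770 protein-coding genes, 7.12% had it there, compared with 13.5% of the 911 genes raised in macrophages (defined below) and 5.76% of the 729 lowered genes. The longer GAGGAAGT, which contains it, was before 2.08% of all genes, 5.27% of the raised and 1.92% of the lowered. A match describes the letters and not a bound site.

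The levels of the selecting genes follow from the rule and are given as a description. Levels are given as CPM, the UMIs of a gene summed over the cells of a library and scaled to a common total, counted at the 3′ end of transcripts and so without a length correction. C1qa stood at 3790, 6126 and 3697 CPM in the macrophages of libraries 1, 2 and 3, and at 10.8, 2.81 and 2.27 CPM in the other kept cells. Csf1r, the receptor for the growth factors Csf1 and Il34, stood at 450, 602 and 560 CPM, against 2.63, 1.45 and 0.928. Tyrobp, an adaptor that passes on signals from several activating receptors, was at 1599, 1929 and 1949 CPM, and Adgre1, which encodes the macrophage antigen F4/80, at 327, 350 and 351 CPM. The levels of Csf1r, Tyrobp and Adgre1 lay close together over the libraries, while C1qa was highest in library 2. Mrc1, the mannose receptor, was at 1357 and 1444 CPM in libraries 1 and 2 and at 126 CPM in library 3.

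C1qa was seen in 84.5%, 93.9% and 88.6% of macrophages. In cells that passed a fibroblast gate, with median depths of 10534, 10906 and 8573 UMIs, it was seen in 1.02%, 0.230% and 0.160%. All 3 C1q chains were seen together in 78 of 97, 30 of 33 and 28 of 35 macrophages. In 12, 1 and 4 cells 1 or 2 chains were seen, and 7, 2 and 3 cells showed none. Summed over the macrophages of a library, the chains kept nearly fixed proportions. C1qb had 0.945, 0.855 and 0.933 UMIs for each UMI of C1qa, and C1qc 0.690, 0.728 and 0.750. Single cells could depart from this, such as a cell of library 1 with 29 UMIs of C1qa and 123 of C1qb. A cell of library 3 had 2 and 38.

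The limit of 3 genes cut through a thin part of the distribution. Exactly 3 genes were seen in 7, 1 and 4 cells, just inside the rule, and exactly 2 in 20, 0 and 5 cells without Epcam, just outside it. In library 1 the leukocyte gene Ptprc was seen in 75.0% of the cells with exactly 2, the protease gene Ctss in 80.0% and the basal keratin gene Krt15 in 60%, and Ctss was at 1351 CPM in these cells compared with 2032 CPM in those with exactly 3. A further 42, 11 and 15 barcodes carried 3 or more of the genes together with Epcam. Ctss was seen in 90.5%, 90.9% and 100% of these and Krt15 in 76.2%, 54.5% and 93.3%, at median depths of 15787, 20406 and 17086 UMIs. They were not counted as macrophages.

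Across the transcriptome, a gene was called raised or lowered in macrophages if its CPM differed at least 4-fold from that of the other kept cells in both library 1 and library 2. A count under 3 on the lower side was set to 3. Of 21170 genes with at least 20 UMIs in the kept cells of these libraries, 1065 were raised (5.03%) and 746 were lowered (3.52%). These shares stand beside each list count below, and a short list with few or no calls lies near them. In library 3, 887 of the raised genes (83.3%) and 554 of the lowered (74.3%) passed the same limit in the same direction. This is the contrast on which the cells were selected, so the calls describe the cells and are no test of them. Of the raised genes, 889 had at least 3 UMIs in the macrophages of both libraries and 176 had fewer in one of them. The median log2 fold over all tested genes was 0.53, which the replacement of counts under 3 lifts among rare genes. A gene could be lowered in library 2 only if the other cells had at least 43.8 CPM.

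Macrophage genes outside the rule were raised almost throughout. Of 20 such genes 19 were raised, with a median log2 fold of 7.81. Ctss, a cathepsin that processes antigen, was at 3230, 4718 and 5476 CPM against 13.4, 6.75 and 3.50 CPM in other cells. Fcer1g, the shared signalling chain of Fc receptors, was at 2178, 2363 and 1969 CPM. Cd68, a lysosomal glycoprotein of phagocytes, was at 508, 817 and 627 CPM, and Ptprc, the leukocyte antigen CD45, at 914, 718 and 710 CPM. Cd14, a co-receptor for bacterial lipopolysaccharide, was the gene not called, at 308, 273 and 308 CPM in macrophages and 158, 165 and 217 CPM in other cells. Of 20 transcription factor genes 12 were raised, among them Spi1 at 460, 467 and 525 CPM against 2.80, 0.663 and 0.362, and Maf, a regulator of tissue macrophages, at 350, 357 and 107 CPM. Taken as a sum, the cells thus carried the genes that define the label beyond those used to select them. Single cells could lack them. In library 1, the cell with 319 UMIs of Dcn had none of Csf1r, Tyrobp or Ctss, and the cells without C1q are described below.

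**Figure D2:**
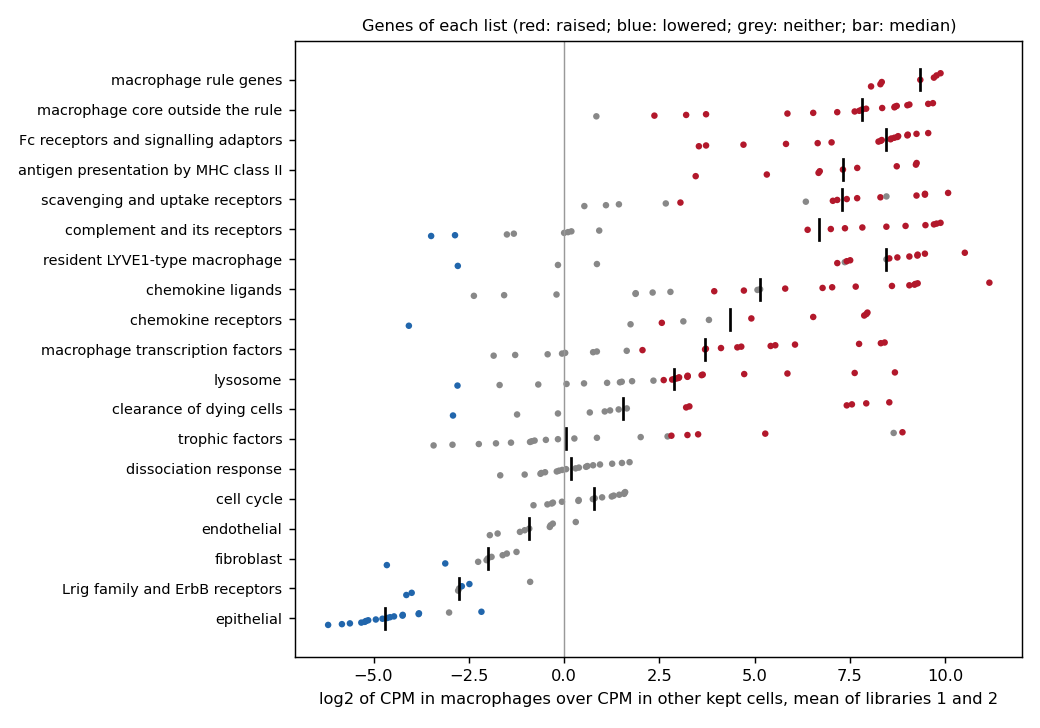
The log2 ratio of CPM in macrophages to CPM in other kept cells, averaged over libraries 1 and 2, for the tested genes of 19 lists, with each point a gene and each bar a list median. The medians of the macrophage lists lie to the right of 0 and that of the epithelial list to the left, at -4.70.

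Receptors for antibody and their adaptors had 18 of 18 tested genes raised and a median log2 fold of 8.45, in a list that includes the rule gene Tyrobp. The high-affinity IgG receptor Fcgr1 was at 109, 164 and 138 CPM, and the inhibitory receptor Fcgr2b at 621, 766 and 252 CPM, with every other-cell level at or under 3.49 CPM. Trem2, a lipid-sensing receptor that signals through Tyrobp, was at 109, 328 and 197 CPM. Among growth factor genes 7 of 11 were raised, of which Csf1r was fixed by the rule, and the raised genes included Csf2ra at 292, 193 and 296 CPM and Tgfbr1 at 406, 700 and 722 CPM. The ligand Csf1 was not called in macrophages, at 5.09, 0 and 19.7 CPM. It was at 76.3, 58.9 and 64.1 CPM in cells that passed the fibroblast gate, where 40.4%, 37.2% and 36.5% had a UMI. The other Csf1r ligand, Il34, had 1 UMI in the macrophages of library 1 and none in those of libraries 2 and 3.

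All 9 tested genes of the MHC class II list were raised, with a median log2 fold of 7.32. Cd74, the invariant chain that escorts class II molecules, was the most abundant of them, at 17590, 10779 and 23238 CPM against 116, 9.08 and 15.1 CPM in other cells. H2-Aa was at 8851, 4540 and 9836 CPM and H2-Eb1 at 6603, 3194 and 7749 CPM. Library 2 was lowest for each of these genes. Ciita, the activator of class II transcription, was at 143, 83.9 and 51.3 CPM.

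Of 18 complement genes, 10 were raised and 2 were lowered. The 3 C1q genes are part of the rule, and of the other 15 genes 7 were raised. These included the anaphylatoxin receptors C3ar1 (219, 325 and 300 CPM) and C5ar1 (264, 503 and 391 CPM) and properdin, Cfp (479, 193 and 209 CPM). The lowered genes were C3, at 15.3, 3.65 and 47.3 CPM against 161, 54.8 and 59.0, and Serping1, the C1 inhibitor, at 62.6, 7.29 and 130 CPM against 377, 228 and 171. Neither reached a 4-fold difference in library 3. None of C3, C2, C4b, C1ra, C1s1 or Cfb was among the raised genes.

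For uptake and digestion, 10 of 16 scavenger receptor genes, with the rule gene Mrc1 among them, and 15 of 25 lysosomal genes were raised. Msr1, a receptor for modified lipoproteins, was at 115, 357 and 78.9 CPM, and the beta-glucan receptor Clec7a at 183, 113 and 118 CPM. The folds of lysosomal genes were smaller, with a list median of 2.89, and other cells expressed them too. Ctsb was at 2133, 3274 and 2501 CPM against 330, 236 and 295 CPM. Lgmn was at 802, 1809 and 1128 CPM against 25.4, 16.9 and 17.2. Ctsl was not called and was lower in macrophages, at 276, 441 and 280 CPM against 1232, 1032 and 559. Gpnmb was the lowered member, with 6.55, 0 and 15.8 CPM. Of 14 genes for clearance of dying cells 6 were raised, such as the receptor Mertk at 111, 419 and 90.7 CPM against 25.4, 21.7 and 19.2. The bridging protein Gas6 was at 221, 193 and 213 CPM and not called, and Mfge8, another bridge to dying cells, was lowered.

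Lipid genes were raised in 9 of 15 cases. Apoe, which carries cholesterol out of cells, was at 3990, 9674 and 6458 CPM against 575, 407 and 346 CPM, and Lpl, a lipase, at 679, 354 and 241 CPM against 18.2, 10.3 and 8.97. Of 13 iron genes 5 were raised. The heme-degrading enzyme Hmox1 was at 180, 317 and 430 CPM against 9.76, 10.3 and 6.67, and Slc11a1, a metal transporter of phagosomes, at 111, 226 and 130 CPM. The ferritin genes Fth1 and Ftl1 were abundant and not called, with folds of 2.52 and 3.55 in library 1. They did not both stay under the limit in library 2. Among eicosanoid enzymes 5 of 12 were raised, including Alox5ap, which serves leukotriene synthesis, at 858, 747 and 604 CPM. Ptges, a prostaglandin E synthase, was lowered.

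Of 21 chemokine ligand genes 12 were raised, and several differed in level between libraries. Ccl6 was at 2996, 1039 and 395 CPM, Ccl3 at 32.0, 321 and 150 CPM, Ccl12 at 71.3, 310 and 197 CPM, and Ccl4 at 258, 456 and 391 CPM. Cxcl16, a ligand of Cxcr6, was at 176, 470 and 450 CPM. Of 14 inflammatory genes 8 were raised. Il1b was at 258, 306 and 414 CPM but was seen in 24, 6 and 14 cells, and Tnf at 22.6, 58.3 and 27.6 CPM in 13, 3 and 3 cells. Il10 was seen in a single cell of library 2 with 61 UMIs, and 74 UMIs of Cxcl10 in library 3 came from a single cell. Of 20 trophic factor genes 5 were raised, including Tgfb1 at 161, 168 and 122 CPM and Pdgfb at 50.9, 62.0 and 138 CPM, and the list median was 0.05. Of 10 chemokine receptor genes 6 were raised, among them Ccr1 at 109, 139 and 78.9 CPM, and 1 was lowered. Of 20 pattern recognition genes 11 were raised, including the RNA sensors Tlr7 (40.7, 186 and 94.7 CPM) and Tlr8 (45.8, 106 and 11.8 CPM) and the DNA sensor Aim2 (105, 102 and 98.6 CPM). Tlr4, the receptor for lipopolysaccharide, was at 55.3, 65.6 and 47.3 CPM against 44.5, 41.9 and 27 CPM and was not called. Of 18 dissociation-response genes and 16 cell cycle genes none were raised or lowered, with medians of 0.18 and 0.78. Over all tested genes 5.03% were raised and 3.52% lowered, with a median of 0.53, so lists of this length lie near those shares without any call.

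Several defining markers of lymphocytes, neutrophils and mast cells were at 0, while monocyte and dendritic cell genes and Ighm were seen. Cd3e, Cd79a, Ms4a1, Ly6g, Nkg7 and Cpa3, which define T cells, B cells, neutrophils, NK cells and mast cells, had 0 UMIs in every library. Of 9 T cell and NK cell genes 1 was raised (Cd4, in 3, 4 and 3 cells), and none of 2 mast cell genes or 5 erythrocyte genes was called. In other cells of library 2 these 3 lists summed to 3.54, 40.8 and 0.620 CPM, too low for any lowered call. The T cell and NK cell list summed to 2.91, 18.2 and 19.7 CPM in macrophages, and 8, 9 and 8 of its 10 genes were at 0. Of 10 neutrophil genes 2 were raised, Csf3r and Mmp9. S100a8 and S100a9 were at 0.727 and 0 CPM in library 1, at 0 in library 2, and in 1 cell of library 3 that held 75 UMIs of the neutrophil list. Among 4 B cell genes 2 were raised: Ighm, the IgM heavy chain, was seen in 57, 14 and 17 macrophages at 169, 117 and 209 CPM, and Cd79b in 11, 3 and 2. Of 11 dendritic cell genes 6 were raised, and of 10 monocyte genes 5. The dendritic cell list summed to 2132, 594 and 825 CPM in macrophages and the monocyte list to 2417, 1046 and 1014 CPM. The Langerhans cell gene Cd207 was seen in 5 and 2 cells of libraries 1 and 2, and in 1 cell of library 3, with 26 UMIs. Of the 4 Langerhans cell genes tested 1 was raised and 2 were lowered. Epcam is on this list and was held at 0 by the rule, so its lowered call was fixed in advance. Barcodes with 3 or more of the selecting genes that were left out for Epcam held 2, 0 and 0 UMIs of Cd207.

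Ranked by the smaller fold of libraries 1 and 2 among genes of at least 50 CPM, the top raised genes were Ccl24 (593-fold), C3ar1 (475), Retnla (436), Ccl12 (436), Ms4a4a (422), Dcstamp (420), Fcrls (411) and Ccl4 (389). The value of Ccl24 is that of library 2, where 3 cells held 14 UMIs with 64.3% in 1 of them, and library 3 had 1 UMI. Ccl24 attracts eosinophils, and Dcstamp takes part in fusion of macrophages. Ms4a4a belongs to a cluster of related membrane genes, whose reads can be hard to divide between copies, as can those of the Ccl and Cd209 families. The lowered genes with the highest level in other cells included epithelial secretory and basal genes. Bpifa1 was at 951 and 255 CPM in libraries 1 and 2 against 11617 and 6760, and Krt15 at 64.0 and 72.9 CPM against 2521 and 2956.

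Libraries 1 and 2, which carry the calls, differed for a subset of genes. Dcn had 348 UMIs in library 1, of which 319 came from 1 cell, and 3 in library 2. Cxcl2 had 344 UMIs in library 1, in 3 cells with 297 in 1 of them, and 3 in library 2. Cd209a, a lectin of monocyte-derived dendritic cells, was at least 24.4 times higher in library 1, where 21 cells had it, against the limit of 3 UMIs for library 2, where 0 were seen. Ccl3 was 10.0 times lower in library 1, Vcam1 5.51 times, and the RNA sensor Tlr7 4.57 times lower. Several genes seen in the same cells as Mrc1 were lowest in library 3. Lyve1 was at 679, 270 and 3.95 CPM, Cd163, the haptoglobin-hemoglobin receptor, at 396, 332 and 23.7 CPM, and F13a1, a clotting factor subunit, at 1654, 1021 and 213 CPM. Ms4a7 ran the other way, at 471, 835 and 1547 CPM. The doublet marks described above also differed between library 3 and the others, and their part in these differences was not tested.

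**Figure D3:**
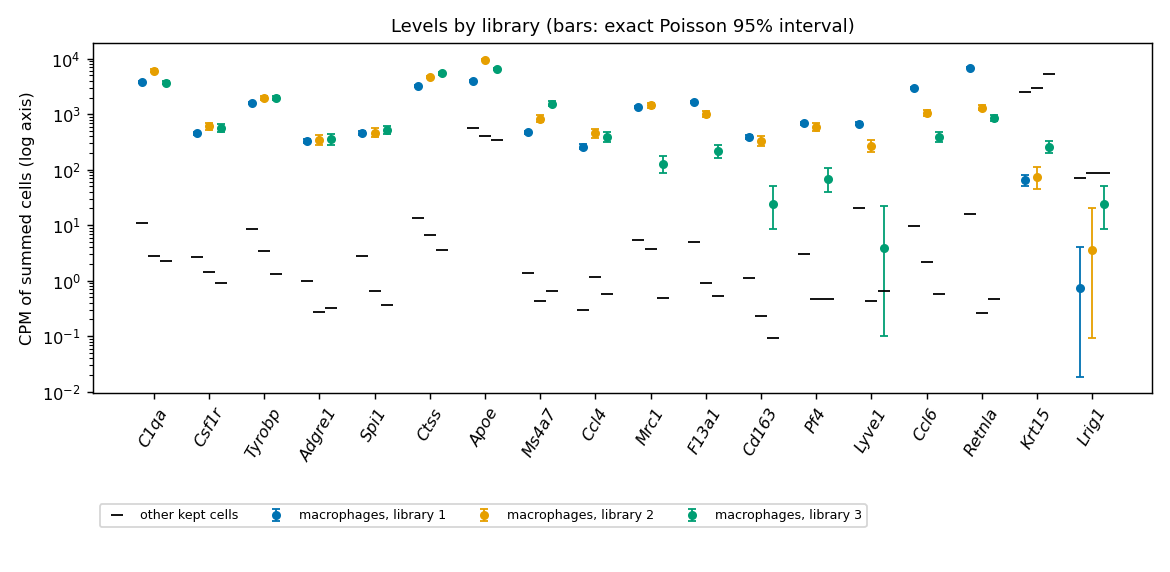
Levels of 18 genes as CPM of summed cells on a log axis, with points for macrophages, exact Poisson 95% intervals as bars, and dashes for the other kept cells of the same library. Csf1r, Tyrobp and Adgre1 lie nearly level across libraries, Mrc1, F13a1, Cd163, Pf4 and Lyve1 are lowest in library 3, and Krt15 and Lrig1 lie below their level in other cells.

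Of 13 genes of alternative activation 8 were raised, the rule gene Mrc1 included, with a median log2 fold of 6.68. Retnla, a secreted protein of alternatively activated macrophages, was at 6850, 1309 and 856 CPM, but it was far from evenly spread. In library 1 it was seen in 35 of 97 cells, where the top cell held 2082 of 9416 UMIs (22.1%) and the top 5 cells 70.1%. In libraries 2 and 3 it was seen in 1 cell each, with 359 and 217 UMIs, so its CPM there describes single cells. All 35 Retnla+ cells of library 1 had Mrc1, 28 had Ccr2, 19 had Fn1 and 11 had Lyve1.

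The macrophages were then divided by whether they had a UMI of C1q, Mrc1 and Lyve1, a division chosen after the values were seen. Cells with C1q and no Mrc1 (group A) numbered 28, 19 and 27, 74 in all. Cells with C1q, Mrc1 and Lyve1 (group B) numbered 26, 4 and 1. Cells with C1q and Mrc1 but no Lyve1 (group C) numbered 36, 8 and 4, and cells without C1q (group D) 7, 2 and 3. Depth bears on this division, because a shallow cell can miss a gene. Cells without Mrc1 had median depths of 9718, 2910 and 3688 UMIs and cells with it 15275, 10836 and 13112. When each cell of at least 5000 UMIs was thinned to that number, Mrc1 was seen in 69.2% of 78 cells, 62.5% of 16 and 23.5% of 17, compared with 71.1%, 39.4% and 20% of all macrophages before thinning. At this equal depth the intervals of libraries 1 and 2 overlapped (58.3 to 78.4% and 38.6 to 81.5%), while that of library 3 (9.56 to 47.3%) lay below that of library 1 and overlapped that of library 2. At 2000 UMIs, which kept 90, 26 and 25 cells, Mrc1 was seen in 57.8%, 34.6% and 8% of them, and the intervals of libraries 1 and 2 (47.5 to 67.5% and 19.4 to 53.8%) again overlapped. These intervals take cells as the unit and cover counting error only.

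**Figure D4:**
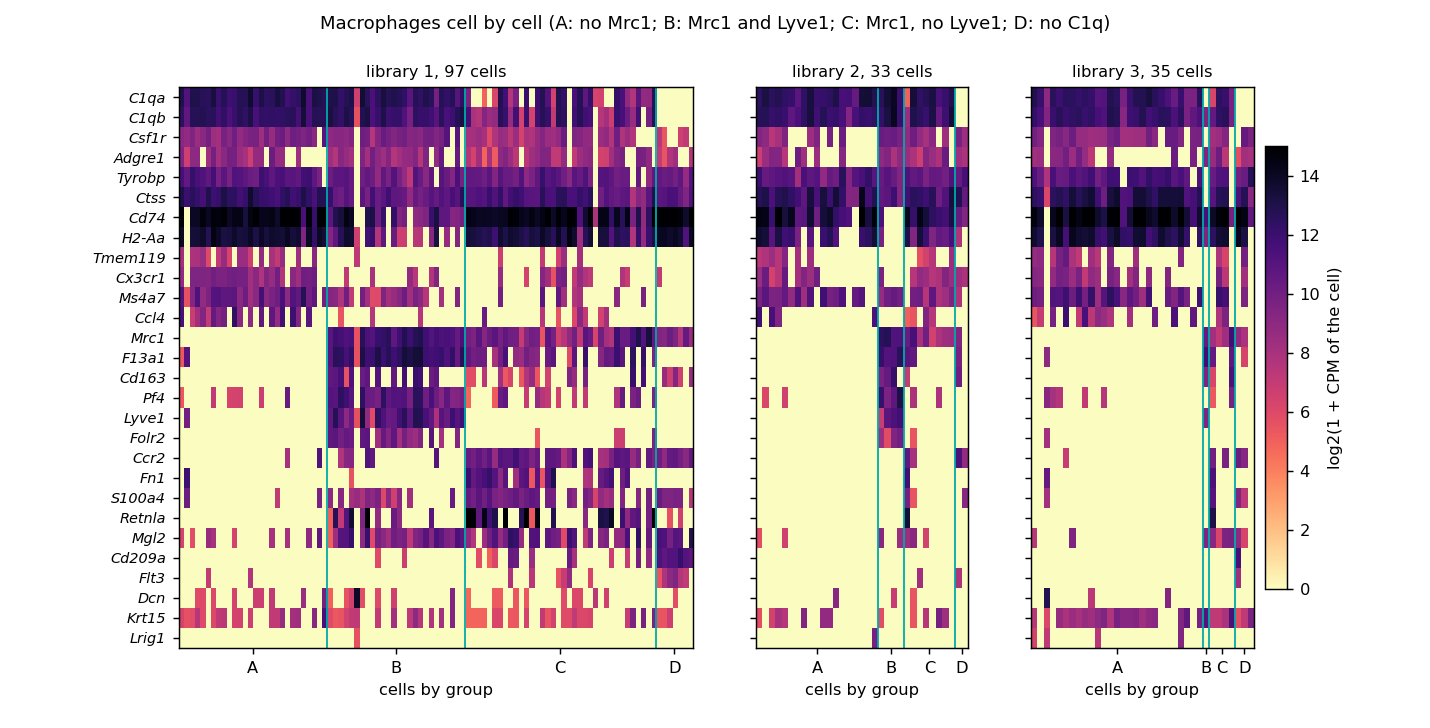
Level of each gene (rows) in each macrophage (columns) as log2(1 + CPM of the cell), with cells in the order of groups A to D within each library. C1q, Tyrobp and Ctss fill most columns, while the block of F13a1, Pf4 and Lyve1 and that of Tmem119 occupy mostly different cells.

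Group A was high in Ms4a7, at 1379, 1171 and 1741 CPM, against 442 and 874 CPM in group B of libraries 1 and 2 and 184, 630 and 1857 CPM in group C. It was thus above group C in libraries 1 and 2 and not in library 3, where 2 of the 4 cells of group C held all 101 UMIs of Ms4a7. Both of these cells also had Tmem119, and had 2 and 4 UMIs of Mrc1. Tmem119, a membrane protein best known from microglia, was at 179, 212 and 322 CPM in group A and at 26.7, 46.4 and 73.5 CPM in group C. It was also seen outside macrophages, in 25.6%, 25.7% and 40.1% of cells in the fibroblast gate, against 23.7%, 33.3% and 42.9% of macrophages. With cells thinned to 5000 UMIs the shares were 15.2%, 13.5% and 29% in that gate and 21.8%, 37.5% and 64.7% in macrophages. In library 3, 1 cell without C1q held 13 UMIs, which put group D at 359 CPM. The fractalkine receptor Cx3cr1 was at 635, 494 and 440 CPM in group A and at 128, 213 and 276 CPM in group C. Cells with Tmem119 nearly always had Cx3cr1: 22 of 23, 11 of 11 and 14 of 15. Mrc1 was in 6, 4 and 3 of the cells with Tmem119, and in 20 of 44, 9 of 19 and 3 of 19 cells with Cx3cr1, so Cx3cr1 was not limited to cells without Mrc1. Sall1, a transcription factor of microglia, had no UMI in any group. Ccl4 was at 1016, 1140 and 533 CPM in group A and at 98, 111 and 239 CPM in group C. It was seen in 18 of 28, 4 of 19 and 14 of 27 cells of group A, and 2 cells held 142 of its 283 UMIs in library 1 and 102 of 113 in library 2. Lyz2, lysozyme, was low in group A, at 1651, 595 and 917 CPM, against 9632, 7157 and 8823 CPM in group C.

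The Lyve1-type list summed highest in group B, and some of its genes were also seen in group C. It summed to 22396 and 13593 CPM in group B of libraries 1 and 2, to 14104, 5266 and 5128 CPM in group C and to 736, 424 and 1214 CPM in group A. The list holds Lyve1, which defines group B. Retnla made up most of the group C sum, in libraries 2 and 3 from 1 cell each with 359 and 217 UMIs. Without Lyve1 itself, the list was at 18471 and 12089 CPM in cells with Lyve1 and 9302 and 2808 CPM in cells without it. Of the list for this type, 10 of 15 genes were raised in macrophages as a whole and 1, Cbr2, was lowered, at 551, 346 and 229 CPM against 2923, 3118 and 3610, and the list median was 8.46. F13a1 was at 5048 and 3515 CPM in group B of libraries 1 and 2 and at 958 and 918 CPM in group C, where 25 of 36 and 2 of 8 cells had it. Pf4, platelet factor 4, was at 2562 and 3109 CPM in group B, 195 and 55.6 CPM in group C and 43.1 and 20.2 CPM in group A. The folate receptor Folr2 was at 1028 and 386 CPM in group B and at 5.94 and 9.27 CPM in group C. All 27 Lyve1+ cells of library 1 had F13a1, 26 had Mrc1, 25 had Pf4 and 1, the cell with most of the Dcn, had Tmem119. In library 3 the group is a single cell of 1405 UMIs, and its levels are not described. Lyve1 was also seen in 14.1%, 12.1% and 17.9% of cells that passed the endothelial gate, and lymphatic endothelium is known to bear it.

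MHC class II genes were lower in cells with Lyve1. Their summed level was 12242 CPM with Lyve1 and 48038 CPM without it in library 1, which is 3.92-fold lower, and 1768 against 25876 CPM in library 2, 14.6-fold lower. Cell by cell, the median of the summed class II level was 2112 CPM in the 26 cells of group B in library 1, from 0 to 47220 CPM, and 52816 CPM in the 28 cells of group A, from 0 to 92288 CPM. The ranges thus overlapped. The group A cell at 0 CPM had 20 UMIs of Lyve1 and was placed there because it had no Mrc1. Another cell of group A, of 2744 UMIs and without Lyve1, had 8 UMIs of Cd74 and 2 of H2-Aa. Scavenger receptor genes were 3.25-fold and 4.37-fold higher with Lyve1, chemokine ligands 2.66-fold and 2.96-fold, and trophic factors 3.13-fold and 3.38-fold. The fibroblast list was at 1807 CPM in the Lyve1+ cells of library 1 and 55.7 CPM in the others, with most of its Dcn from 1 cell. Without that cell it was at 35.1 CPM, and the class II sum was 3.68-fold lower with Lyve1. The pericyte and smooth muscle list was at 314 CPM with Lyve1 and 7.69 CPM without it in library 1, and the dissociation-response list was 2.39-fold higher with Lyve1 in library 2 and 1.03-fold in library 1. The neutrophil list was 3.65-fold and 6.40-fold higher with Lyve1, the B cell list 2.03-fold and 2.78-fold, and the dendritic cell list 1.31-fold and 4.20-fold. The part of these lists in the differences was not tested.

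**Figure D5:**
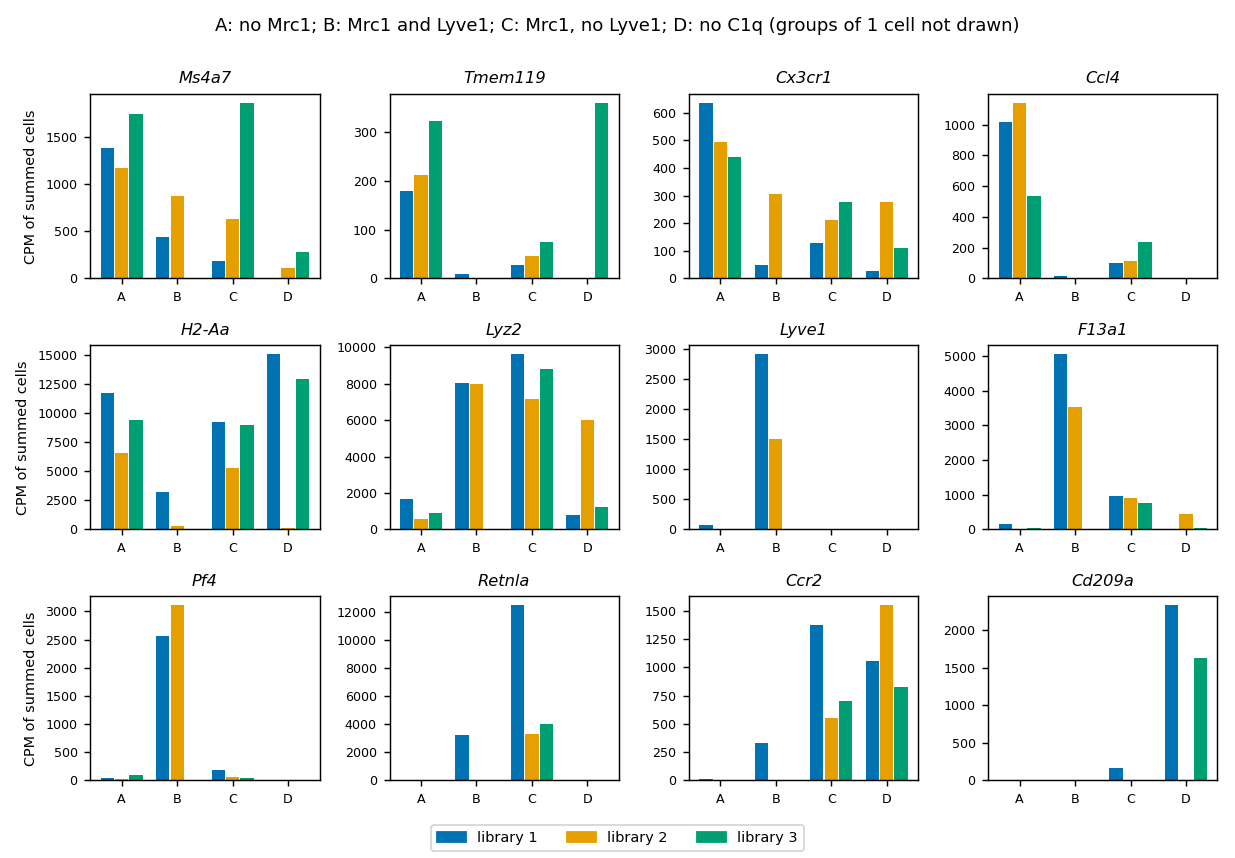
CPM of summed cells for 12 genes in groups A to D, with one bar per library and groups of 1 cell left out. Ms4a7, Tmem119, Cx3cr1 and Ccl4 are highest in group A in most libraries, Lyve1, F13a1 and Pf4 in group B, and Retnla in group C.

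Monocyte-type genes were seen in group C, through most of its cells in library 1 and through few in libraries 2 and 3. Ccr2, the receptor by which monocytes leave the marrow, was at 1374, 556 and 698 CPM, against 14.4, 0 and 6.19 CPM in group A. It was seen in 32 of 36, 2 of 8 and 2 of 4 cells of group C, and in library 2 a single cell held 54 of its 60 UMIs. The monocyte list summed to 4097, 1910 and 3015 CPM in group C and to 1931, 4149 and 1436 CPM in group D, so group D was higher in library 2. Fn1, fibronectin, was at 1722, 992 and 1250 CPM, but in libraries 2 and 3 it was seen in 1 and 2 macrophages. Ly6c2, a marker of circulating classical monocytes, had 1 UMI in group C and 2 in group D over all libraries. In libraries 1 and 3, H2-Aa was at 9230 and 9044 CPM in group C and at 11804 and 9477 CPM in group A. In library 2 the MHC class II list summed to 26024.5 CPM in group C and 30213.7 CPM in group A. A single cell of group C there held 270 UMIs of H2-Aa.

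Group D, the 12 cells that met the rule without C1q, was of more than one kind. In libraries 1 and 3 its H2-Aa level was 15116 and 12980 CPM, Cd209a was at 2335 and 1629 CPM and the dendritic cell receptor Flt3 at 303 and 166 CPM. The Cd209a of library 3 came from 1 cell. The 2 cells of library 2 had H2-Aa at 111 CPM, Ccr2 at 1549 CPM, and 18 UMIs of Plac8 and 7 of Chil3, which are genes of monocytes. The other cells of library 3 had neither Cd209a nor Flt3. One had 13 UMIs of Tmem119 and 10 of Ms4a7, genes of group A. The other, of 3832 UMIs, had 75 UMIs of the neutrophil list, among them 25 of Csf3r, 19 of S100a8 and 24 of S100a9, and no UMI of H2-Aa or Ccr2. The macrophage label of the cells of group D rests on Tyrobp, Csf1r, Mrc1 and Adgre1. In library 1, 21 macrophages had Cd209a, of which 18 had the lectin Mgl2 and 9 had Flt3, and 9 of the 21 had C1qa.

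To see which other genes followed Mrc1, sums of macrophages with and without it were compared, and genes differing 4-fold or more in all 3 libraries were counted. Of 8818 genes, 36 were higher with Mrc1 (0.408%) and 4 were higher without it (0.0454%). Those higher without it were Frmpd4, the interleukin-2 receptor chain Il2ra, Stard13 and Olfml3. Il2ra was at 93.3, 148 and 224 CPM without Mrc1 and 1.82, 6.01 and 22.7 CPM with it. The leading genes with Mrc1 were Retnla, Clec10a, Pltp, Ccr2, F13a1, Ahnak and Cfp. Single cells carried some of these in libraries 2 and 3. Retnla was in 1 cell each, 1 cell held 54 of 84 Ccr2 UMIs in library 2, and 1 cell held 39 of 47 F13a1 UMIs in library 3. Clec10a, a galactose lectin, was at 597, 457 and 352 CPM with Mrc1 and 3.59, 18.5 and 12.1 CPM without it. Pltp, which transfers phospholipids, was at 727, 553 and 261 CPM with it and 25.1, 37.1 and 12.1 CPM without it. The macrophages with Mrc1 number 7 in library 3. Without library 3 the counts were 61 and 31, and without library 2 they were 90 and 10.

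Lrig1, the gene whose promoter drives the Cre, was seen in few macrophages. It had a UMI in 1 of 97, 1 of 33 and 4 of 35 cells (1.03%, 3.03% and 11.4%), compared with 54.1%, 66.3% and 56.6% of Epcam+ cells, 26.7%, 33.1% and 33.6% of cells in the fibroblast gate and 7.66%, 9.09% and 15.4% of those in the endothelial gate. In library 1 that cell was the one with 319 UMIs of Dcn, a gene of the fibroblast list. In library 3, the cell with 100 UMIs of Dcn held 2 of the 6 UMIs of Lrig1. Lrig1 was at 0.727, 3.65 and 23.7 CPM in macrophages. The 95% intervals of its share were 0.182 to 5.61%, 0.537 to 15.3% and 4.54 to 26%. They did not reach the share of the Epcam+ cells in any library. The Epcam+ cells were deeper, at medians of 14156, 18165 and 12949 UMIs. With each cell thinned to 5000 UMIs, Lrig1 was seen in 0 of 78, 0 of 16 and 2 of 17 macrophages (11.8% in library 3, with an interval of 3.29 to 34.3%) and in 30%, 33.5% and 33.5% of Epcam+ cells, so in library 3 the interval reached the Epcam+ share. The endothelial gate had 6.16%, 12.5% and 12.5% at this depth, and its intervals overlapped those of macrophages in every library. Of 7 genes of the Lrig family and ErbB receptors, 4 were lowered and none was raised. Egfr was at 64.7, 43.8 and 55.2 CPM against 302, 294 and 308. How these cells came to be sorted as tdTomato+ was not tested.

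Epithelial RNA was present in macrophages at a low level. The rule left out cells with Epcam, which bears on this level. Barcodes with 3 or more of the selecting genes and Epcam had Krt15 at 897, 1722 and 4054 CPM. In macrophages it was at 64.0, 72.9 and 260 CPM. Without the limit on Epcam, 514 genes were lowered over the transcriptome in place of 746. Of 18 epithelial genes 17 were lowered. The list summed to 749, 314 and 765 CPM in macrophages, compared with 13158, 12171 and 16712 CPM in Epcam+ cells. Cells in the endothelial gate had 529, 2120 and 728 CPM and those in the fibroblast gate 569, 223 and 931 CPM, so in libraries 2 and 3 the macrophage level lay between those of both gates. In library 1 it lay above both, but at 378 CPM, below both, without the 1 cell that held 488 of the 687 UMIs of Scgb3a1, a secretory gene and the only one not called. Krt15 was seen in 58.8%, 36.4% and 82.9% of macrophages, in 52.2%, 36.4% and 74.4% of endothelial-gate cells and in 54.9%, 40.5% and 81.2% of fibroblast-gate cells. The source of this RNA was not tested, and the doublet marks on 31 of 35 macrophages of library 3 bear on the same cells. Of the fibroblast list 2 of 9 genes were lowered and of the endothelial list 0 of 9. That 0 was fixed in advance. All endothelial genes together had 40.7 CPM in other cells of library 2, under the 43.8 CPM needed for a lowered call there. Of 7 muscle satellite genes 1 was lowered, and of 7 pericyte and smooth muscle genes none. The pericyte and smooth muscle list summed to 92.0 CPM in those other cells, so few of its genes could be called lowered. The endothelial list summed to 16.7, 18.2 and 11.8 CPM in macrophages. In library 3, 100 of 102 Dcn UMIs came from 1 cell.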

How the data were processed

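Single-cell RNA-seq was analysed for 3 libraries of tdTomato+ larynx cells from 1 condition. The authors aligned reads to GRCm39 (mm39) with Cell Ranger 8.0.1, and the deposited values are raw UMI counts per gene and barcode, without the quality limits or doublet removal named in the methods. Those methods word the limits with genes and UMIs exchanged, and the wording as printed was an alternative. Genes were looked up by symbol, and 52 features that share a symbol with another were left out of the calls and lists. Ensembl identifiers were used to find coordinates. The cell rule, gene lists and groups were chosen with earlier results of these data known. Genes named were those of 36 lists, the top 20 raised and top 5 lowered genes, genes differing most between libraries 1 and 2, and, chosen after their values were seen, genes differing with Mrc1. UMIs were summed per library and cell class and scaled to CPM. No test was made, since there is 1 condition and cells are not replicates. Endothelial and fibroblast gates took kept cells by markers. Shares have 95% Wilson intervals and levels exact Poisson intervals, both for counting error only. The calling step was tested on simulated data. Python 3.11.15, scanpy 1.11.5 (scrublet), scipy 1.17.1 and edgeR 4.0.16 (TMM scaling) were used, with GENCODE M39 for coordinates. Alternatives were other cell rules and limits, thinning, doublet removal, scalings, fold and count limits, and leaving out each library.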

Additional observations from a re-analysis of the deposited data

How the results depend on the processing

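The share of kept cells that were macrophages, 0.415% on average, stayed within 1 SD of the libraries (0.278) under the 11 alternatives that change it. That limit is wide against the mean, and leaving out a library cannot pass it, so staying within it does not show stability. The mean ran from 0.283% to 0.560% when each library was left out in turn. The contrast between libraries moved more: the shares were 0.666%, 0.444% and 0.0166% without scrublet doublets and 0.519%, 0.516% and 0.151% with the quality limits as the methods word them, against 0.681%, 0.438% and 0.127%. With the quality limits as the methods word them, 521 genes were raised and 57 lowered in place of 1065 and 746, with fewer macrophages (23, 8 and 15). A fold of 2 raised 1733 genes. Leaving out each library gave 1471 to 1690 raised genes and 910 to 2345 lowered genes. Each of these rests on 1 library alone, library 2 or library 1. Added after seeing the data, a call that also required library 3 left 887 raised and 554 lowered. Changes of sign were counted only for lists with a median log2 fold of at least 2 in either direction. Among these, erythrocyte genes changed sign (2.74, but -3.07 without quality limits, -1.66 without library 2 and 6.73 without library 1). So did neutrophil genes (2.65, but -0.23 without library 2 and 4.4 without library 1) and Lrig family and ErbB genes (-2.75, but 0.53 with the limits as worded). The other lists of that size kept their sign, and smaller medians were not examined for it. The erythrocyte and neutrophil medians rest largely on counts set to 3. Removing scrublet doublets took 31 of 35 macrophages from library 3. Of 399 levels of named genes recomputed, 201 moved beyond their counting interval. The numbers of genes higher with Mrc1 (36) and without it (4) became 39 and 7 when cells with markers of other types were left out, and 42 to 90 and 5 to 31 when each library was left out, alternatives also chosen after seeing the data. Every fold was formed within a library, so the values are already paired by library, and no paired test was run because the rule used these contrasts.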
